A study of Mus musculus with 4 samples.

Results

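The MKS module is a group of proteins of the ciliary transition zone, and the RFX2 peaks at the promoters of 10 mouse genes that encode it are described here. The genes were taken by name, by a rule that uses no measured value, although earlier results of these data were known when the group was chosen. They are B9d1, B9d2, Mks1, Tctn1, Tctn3, Tmem17, Tmem67, Tmem216, Tmem231 and Tmem237. They are 10 of the 21951 protein-coding genes with an annotated promoter, defined as the interval from 1000 bp upstream to 500 bp downstream of any annotated transcription start site (TSS). All 10 promoters held an RFX2 peak in each of the 3 deposited peak lists, against 5.25% to 14% of all protein-coding genes, depending on the list. The peak lists hold no measure of the encoded proteins, so the name of the module comes from the known function of the genes.

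RFX2 binding was mapped with ChIP-seq, in which an antibody pulls down a protein together with the DNA fragments it holds, and the fragments are then sequenced. The series holds 4 samples of decapsulated testis from wild type mice of a mixed background (C57BL/6, 129/Sv and FVB/N) at postnatal day 29 to 30. Of these, 2 were precipitated with an antibody against RFX2 and are called replicates 1 and 2 (whether these come from separate animals is not given in the sources used here), and 2 are input chromatin without precipitation. No Rfx2 mutant was assayed by ChIP-seq in these samples, so a peak is a position enriched over background, with no control that lacks the protein. The study's text describes dissociated germ cells of younger mice, and the age given here is that of the sample labels. Decapsulated testis holds germ cells of all stages present together with somatic cells, and the cell type in which a promoter was occupied cannot be told from these lists.

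The transition zone is the short region at the base of a cilium or flagellum where the microtubules of the axoneme are tied to the overlying membrane, and it acts as a gate for proteins that enter or leave. The MKS module is named after Meckel syndrome, a ciliopathy caused by mutations in several of its genes, and it joins soluble proteins with a B9 domain to tectonic proteins and proteins that span the membrane. Spermatids build a cilium-derived structure, the sperm flagellum. Transcription factors of the Regulatory Factor X (RFX) family bind the X-box, an inverted repeat, and control ciliary genes in many animals. In its perfect form the X-box is the half-site GTTGCCA followed by its reverse complement.

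The sequence closest to this palindrome within 100 bp of the peak summit, the position of highest enrichment, is shown for the 8 genes where it had at most 3 mismatches to the 14 bases. These sites are shown because they lie under the peaks and differ between the genes. Capitals mark the 14 bases, the flanks are in lower case, and each sequence is read 5′ to 3′ on the sense strand of the gene in build GRCm38.
B9d1, chr11:61505130-61505159, plus strand: taccgtctGTTTCCAAGACAACcgagagcc
B9d2, chr7:25680788-25680817, plus strand: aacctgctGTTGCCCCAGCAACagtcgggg
Mks1, chr11:87853183-87853212, plus strand: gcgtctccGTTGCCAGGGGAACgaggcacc
Tctn1, chr5:122264403-122264432, minus strand: ctgtgactGTTGCCCGGGCAACagacgggc
Tmem17, chr11:22512400-22512429, plus strand: actgcccgGTTGCCAAGGGAACcgccacgc
Tmem216, chr19:10555723-10555752, minus strand: tgtacgcaGTTTCCATGGGGACtgaacatg
Tmem231, chr8:111933781-111933810, minus strand: cgccgtcgGTTGCCGTGGAGACtcggcgct
Tmem237, chr1:59120102-59120131, minus strand: tagtcagcGTTGCCATGGCGACgcctccgg

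In the other 2 genes, Tctn3 and Tmem67, the closest match to the palindrome within 100 bp of the summit had 5 mismatches. Over the whole peak Tmem67 had a match with 4, outside that window. Their best arrangement of the outer half-sites GTTGCC and GGCAAC with 1 base between them in place of 2 is shown because it is the form in which Tctn3 differs from the 8 sites above. Capitals mark the half-sites.
Tctn3, chr19:40612351-40612379, minus strand: tcccagcgGTTGCCaGGTAACgggaacca
Tmem67, chr4:12088062-12088090, minus strand: cgtgcgtgGTAACCtAGCAACcaggcgtc

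The combined list, which gives −log10 p, fold enrichment over local background and the summit of each of its 2726 peaks, held a promoter peak for all 10 genes, against 5.25% of all protein-coding genes. The list of replicate 1 has 39825 peaks and met all 10 promoters, against 14% of protein-coding genes. The list of replicate 2 has 21274 peaks and also met all 10, against 11.3%. In all 10 genes the strongest promoter peaks of the replicates overlapped each other. The looser condition, that any promoter peaks of the replicates overlap, held for 8.77% of protein-coding genes. The study had named transition zone genes as bound from these same samples, so these counts are not independent evidence. The replicate lists give 1 score per peak on a −log10 scale, without stating whether it stems from a p or a q value, and the depth of the libraries is unknown. Scores of this kind grow with sequencing depth, so their size is compared within a list only. Ratios of scores between lists are read only against the same ratio in other genes.

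**Figure D1:**
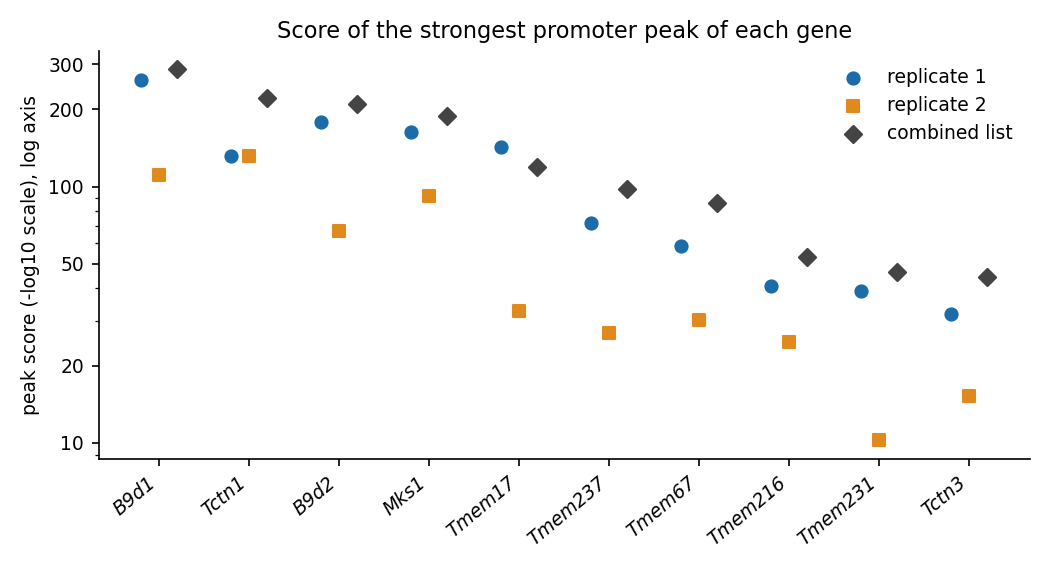
The vertical axis is the score of the strongest promoter peak on a −log10 scale, drawn on a log axis, for the 10 genes in the order of the combined list (diamonds), with replicate 1 as circles and replicate 2 as squares. B9d1 has the highest combined value (286.6) and Tctn3 the lowest (44.3), and the replicate 2 score lies below that of replicate 1 in 9 of the 10 genes.

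The proteins with a B9 domain, B9D1, B9D2 and MKS1, sit on the cytoplasmic side of the transition zone and bind each other. All 3 of their genes ranked 294 or better in the combined list. The B9d1 peak (chr11:61504313-61505955) had a score of 259.8 in replicate 1 (rank 41 of the list), 111.2 in replicate 2 (rank 83) and a −log10 p of 286.6 in the combined list (rank 54), with a 26.8-fold enrichment. It was the strongest and, at 1643 bp, the widest peak of the 10 genes. The B9d2 peak (chr7:25680132-25681330) scored 177.7 in replicate 1 (rank 180) and 66.9 in replicate 2 (rank 317), and reached 209.5 in the combined list (rank 217) with a 24.0-fold enrichment. The Mks1 peak (chr11:87852686-87854042) scored 163.8 (rank 234), 92.1 (rank 152) and 188.0 (rank 294) in the same order. Its fold enrichment was lower, at 14.8, which placed it at rank 1834 by fold.

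The tectonics, TCTN1 and TCTN3, are related proteins with a signal peptide that act in Hedgehog signalling and ciliary membrane composition. Their genes stood at opposite ends of the module. The Tctn1 peak (chr5:122263630-122264893) scored 131.4 in replicate 1 (rank 394) and 131.7 in replicate 2 (rank 40), with a combined −log10 p of 220.6 (rank 181) and a 21.04-fold enrichment. It was the only one of the 10 genes whose score was not higher in replicate 1. The Tctn3 peak (chr19:40612101-40612698) scored 31.9 (rank 2899), 15.3 (rank 2297) and 44.3 (rank 2658 of 2726), with a 6.54-fold enrichment. It lay close to the lowest −log10 p of the combined list, 43.2.

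The membrane-spanning members fell into an intermediate and a weak group. TMEM17 is a small membrane protein that joins the B9 proteins at the ciliary base. The Tmem17 peak (chr11:22512060-22512668) scored 142.6 in replicate 1 (rank 328) but 32.7 in replicate 2 (rank 964), and had a combined −log10 p of 119.1 (rank 766) at 11.5-fold enrichment. TMEM237, a protein with several membrane passes that is mutated in Joubert syndrome, was encoded by the gene next in strength. The Tmem237 peak (chr1:59119833-59120643) scored 71.9 (rank 1136), 26.7 (rank 1241) and 97.8 (rank 1080) at 12.6-fold enrichment. TMEM67, or meckelin, has a large cysteine-rich outer domain and resembles a receptor. The Tmem67 peak (chr4:12087686-12088756) scored 58.3 (rank 1502), 30.2 (rank 1034) and 86.4 (rank 1281), yet its enrichment of 21.01-fold was close to that of Tctn1.

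Tmem216 and Tmem231, which encode further membrane proteins of the module, had weaker peaks. The Tmem216 peak (chr19:10555376-10556145) scored 40.9 in replicate 1 (rank 2197), 24.6 in replicate 2 (rank 1389) and 52.9 in the combined list (rank 2274), with a 7.85-fold enrichment. The Tmem231 peak (chr8:111933567-111934361) scored 39.0 (rank 2338), 10.22 (rank 3577) and 46.2 (rank 2593), with a 6.95-fold enrichment. With Tctn3, these genes made up the lowest 3 of the module in both replicates as well as in the combined list.

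**Figure D2:**
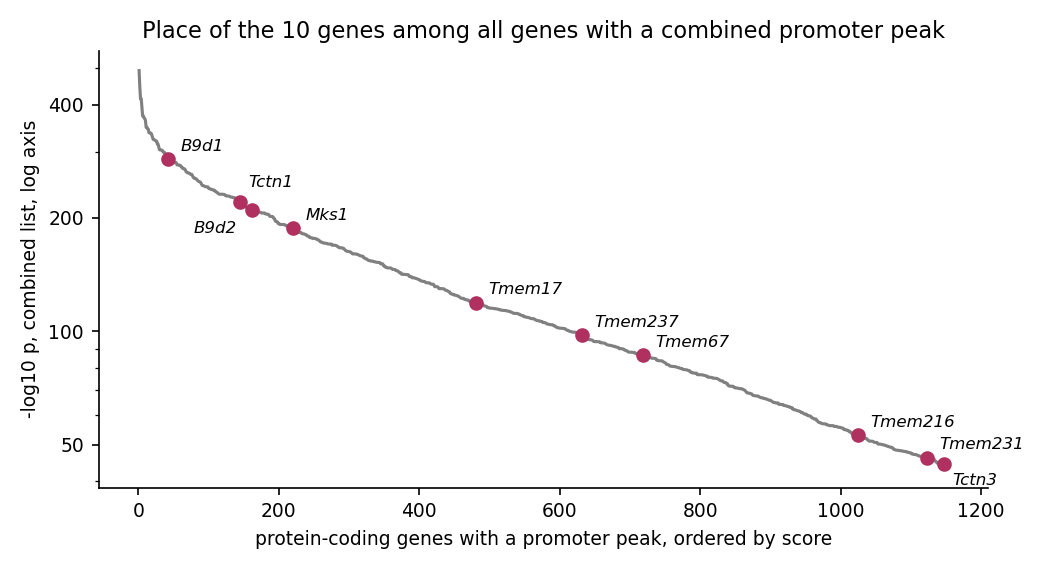
All 1153 protein-coding genes with a combined promoter peak are ordered along the horizontal axis by the −log10 p of that peak, which the vertical axis gives on a log axis. The 10 MKS genes, as points, run from B9d1 near the top of the curve to Tctn3 near its end, with no member between Tmem67 (86.4) and Tmem216 (52.9).

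As a set the 10 genes were spread over the range of RFX2 targets, the 1153 protein-coding genes with a combined promoter peak, rather than gathered at its top. Their median −log10 p was 108.5 against 105.5 over all targets, their median fold enrichment 13.7 against 15.0, and their median peak width 941 bp against 884 bp. When the combined list was cut by rank into 4 equal parts, the strongest held B9d1, B9d2, Mks1 and Tctn1, the next held Tmem17, Tmem67 and Tmem237, the next none and the weakest Tctn3, Tmem216 and Tmem231. The order depended on the measure for some genes. Mks1 was at percentile 81.0 of the targets by −log10 p (100 being the strongest) but 49.0 by fold, and Tmem17 at 58.4 by −log10 p but 26.5 by fold. Tmem67 moved the other way, from 37.8 to 78.7.

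The order of the 10 genes was largely shared by the replicates. The same 5 genes (B9d1, B9d2, Mks1, Tctn1 and Tmem17) had the 5 highest scores in both, and the same 3 had the lowest. Within these groups the order differed, since B9d1 was first in replicate 1 and Tctn1 in replicate 2, and with 1 score per replicate neighbours in the order cannot be separated. Spearman's rho between the replicate scores was 0.842 over the 10 genes and 0.788 over the 1138 targets with overlapping peaks in both replicates, and the genes of each comparison share the same 2 libraries.

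The ratio of the replicate 1 to the replicate 2 score had a median of 2.21 over the 10 genes and 2.06 over those targets (quartiles 1.53 and 2.67). Tctn1 (ratio 0.998, percentile 4.31 of the targets), Tmem17 (4.36, percentile 94.6) and Tmem231 (3.81, percentile 91.4) stood furthest from it. In replicate 2 the Tmem231 peak was only 223 bp wide against 891 bp in replicate 1, so that the overlap was lost when at least 50% of each peak had to be covered. The ratio of the combined −log10 p to the replicate 1 score was lowest in Tmem17 (0.836) and highest in Tctn1 (1.68) among the 10 genes. Its absolute size is not interpreted, because the kind of the replicate score is not stated. The library of replicate 2 alone was sequenced again by the authors, who removed reads of human origin from that run, and the part of this step in these ratios was not tested.

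**Figure D3:**
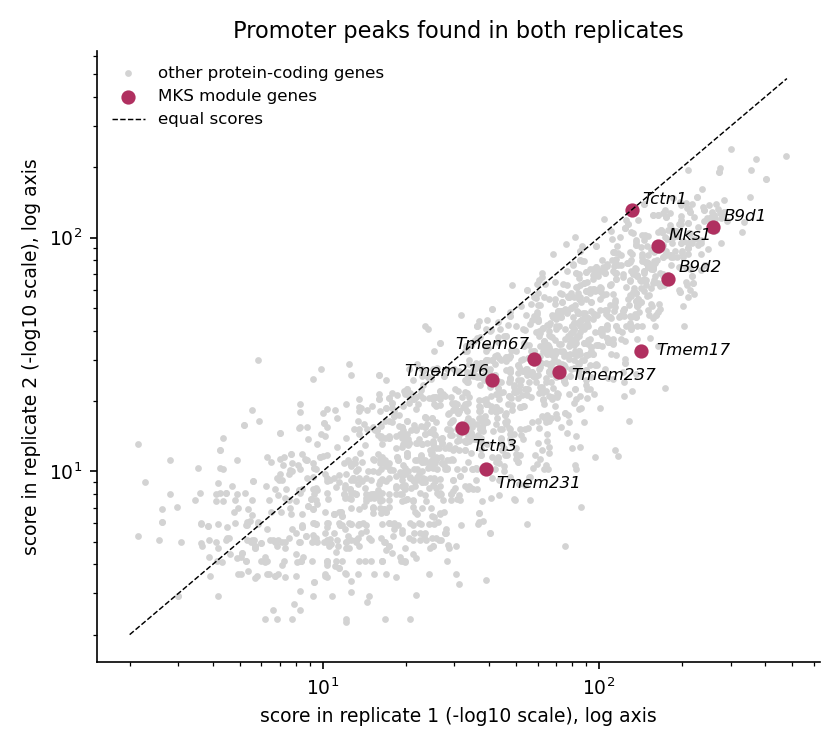
Each point is a protein-coding gene with overlapping promoter peaks in both replicates, with the replicate 1 score on the horizontal and the replicate 2 score on the vertical axis, both on log axes. Of the 10 MKS genes (large points), Tctn1 sits on the dashed line of equal scores and the other 9 sit below it, Tmem17 (142.6 and 32.7) among the furthest.

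The summits of the combined peaks lay close to a TSS, counted along the gene with positive values downstream. The distance to the nearest annotated TSS was +9 bp in B9d1, +26 in B9d2, −20 in Mks1, 0 in Tctn1, −152 in Tctn3, +333 in Tmem17, −60 in Tmem67, +2 in Tmem216, +22 in Tmem231 and +25 in Tmem237. The summit was within 60 bp of a TSS in 8 of the 10 genes and in 44.9% of all targets, Tctn3 and Tmem17 being the exceptions. This limit was set after the distances had been seen and equals that of Tmem67, and within 30 bp the count was 7 of 10 and 30.6% of targets. From the 5′-most TSS of a protein-coding transcript only 4 of the 10 (B9d1, B9d2, Mks1 and Tctn1) and 31.4% of targets were within 60 bp. From that 5′-most start the summit was downstream in 8 of 10 genes and in 44.3% of targets. Counted from the nearest annotated TSS, the summit was downstream in 6 of 10 genes and in 25.2% of targets. It was upstream in 3 of 10 and in 74.0% of targets. From the same nearest TSS the direction turned when the peak centre replaced the summit, with 3 of 10 genes downstream (27.7% of targets) and 7 of 10 upstream (71.9%). In 7 genes (B9d1, B9d2, Tctn1, Tmem17, Tmem216, Tmem231 and Tmem237) the summit fell in a non-coding part of an exon, in Tmem67 in an intron, and in Mks1 and Tctn3 outside the gene. Exons of any annotated transcript were counted, and the share of targets in each of these places was not computed. No test was made of the shares given in this paragraph.

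Several of these distances depend on which transcripts are counted. The TSS nearest the summit belonged to no protein-coding transcript in Tctn1, Tmem67, Tmem216 and Tmem231. From the 5′-most TSS of a protein-coding transcript the summit was 45 bp downstream in Tctn1 and 104 bp in Tmem231. It was 504 bp downstream in Tmem216, 339 bp in Tmem237 and 1953 bp in Tmem67. Other protein-coding starts were closer in Tmem216 (start at chr19:10555751, summit at 10555734) and in Tmem67 (start at chr4:12087957, summit at 12088067). In Tmem67 that TSS (chr4:12090020) stands at least 2013 bp upstream of the other annotated starts, which lie between 12087927 and 12088007, and the peak covers the latter. For Tmem17 the only GENCODE start was 333 bp from the summit, whereas the nearest RefSeq start was 138 bp away.

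**Figure D4:**
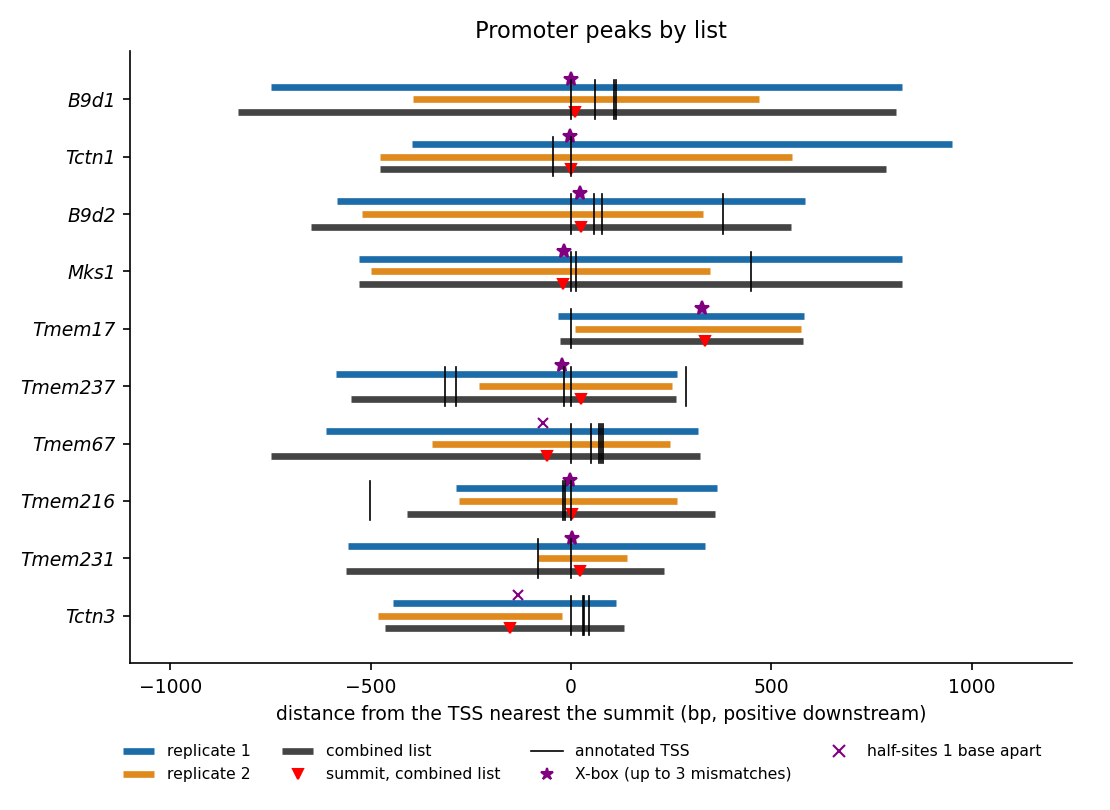
The promoter peaks of the 10 genes in replicate 1, replicate 2 and the combined list are drawn as bars to scale, on an axis of distance in bp from the TSS nearest the summit, with TSSs as vertical lines, summits as triangles, X-boxes as stars and half-sites 1 base apart as crosses (Tctn3 and Tmem67). Tmem17 has its summit 333 bp downstream of its TSS, Tctn3 has its summit 152 bp upstream, and the Tmem231 peak of replicate 2 is the narrowest, at 223 bp.

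The combined peak was shared with the promoter of another gene in 4 of the 10 members, against 38.4% of targets. All 4 partner genes are transcribed from the opposite strand. B9d1 shared its peak with the antisense gene B9d1os, whose TSS is 85 bp from the nearest B9d1 start. Tmem237 shared its peak with the antisense gene G730003C15Rik, whose TSS is 261 bp from the Tmem237 start nearest the summit and 27 bp from another Tmem237 start. With protein-coding genes the count was 2 of 10, against 27.8% of targets. Tctn3 shared its peak with Entpd1, which encodes the ectonucleotidase CD39, and Tmem67 with Rbm12b2, which encodes a protein with RNA-binding motifs. The starts of Tctn3 and Entpd1 nearest the summit are 156 bp apart, and the summit lay at −4 bp from the Entpd1 TSS but at −152 bp from that of Tctn3. The Rbm12b2 TSS nearest the summit is 1432 bp from the Tmem67 start nearest the summit, the smallest gap between any starts of the pair is 579 bp, and the summit was at −1372 bp from that Rbm12b2 TSS, the sign meaning upstream. For these pairs the peak cannot be assigned to one gene, and the other 6 genes had their peak to themselves.

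An X-box with at most 3 mismatches lay within 100 bp of the summit in 8 of the 10 genes, against 58.3% of targets. With the window around the peak centre the count fell to 4, without Mks1, Tctn1, Tmem231 and Tmem237. In windows of the same length moved 1000 bp to the right of the targets' summits the share was 0.781%, and around the TSSs of all protein-coding genes it was 2.51%. Tmem237 had the closest match, with 1 mismatch. Mks1, Tctn1 and Tmem17 had 2 mismatches, and B9d1, B9d2, Tmem216 and Tmem231 had 3. With at most 1 mismatch the count was 1 of 10, against 9.11% of targets, and with at most 2 it was 4 of 10, against 33.3%.

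The centre of the X-box lay within 20 bp of the summit in 7 of these 8 genes and in 79.6% of the 672 targets that have one. Its offset from the summit was −9 bp in B9d1, −4 in B9d2, 2 in Mks1, −2 in Tctn1, −7 in Tmem17, −3 in Tmem216 and −18 in Tmem231. The exception was Tmem237, whose site of 1 mismatch lay at −47 bp from the summit and −4 bp from the TSS. In 7 of the 8 genes the centre of the site was also within 25 bp of a TSS, against 27.1% of targets with an X-box, and in Tmem17 it was 326 bp downstream. For Tctn1, Tmem216 and Tmem231 that TSS is one of transcripts that are not protein-coding. The limits of 20 and 25 bp were not among the planned settings. Each lies just above the furthest site counted, −18 bp from the summit in Tmem231 and 22 bp from the TSS in B9d2.

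The substitutions differed between the sites. Positions run from 1 at the first base of the palindrome on the sense strand, and the palindrome base is written first and the site base last. They were A12G in Tmem237, T8G and C11G in Mks1, A7C and T8G in Tctn1, and T8A and C11G in Tmem17. In the genes with 3 they were G4T, T8A and G10A in B9d1, A7C, T8C and G9A in B9d2, G4T, C11G and A12G in Tmem216, and A7G, C11A and A12G in Tmem231. Positions 7 or 8, the centre of the palindrome, differed in 6 of the 8 genes and in 36.6% of targets with an X-box, while positions 1 to 3, 5, 6, 13 and 14 matched in all 8. The Tctn1 site kept both outer half-sites of 6 bases intact and is its own reverse complement.

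In the 8 genes with an X-box, the half-site nearer the 5′ end of the gene was the better match or an equal one. It was intact over its outer 6 bases in 6 of 8 genes (B9d2, Mks1, Tctn1, Tmem17, Tmem231 and Tmem237), against 38.4% of targets with an X-box, and the downstream half-site was intact in 1 of 8 (Tctn1), against 31.9%. The upstream half-site had fewer mismatches in 6 of 8 genes and in 40.5% of targets, and both sides were equal in B9d1 and Tctn1. The downstream half-site was the better match in 0 of 8 genes and in 31.9% of targets. Only 8 sites enter this count, which was not among the planned results, and no test was made of it. In the sites with 1 base between the half-sites, Tctn3 had 0 mismatches upstream and 1 downstream, and Tmem67 had 2 upstream and 1 downstream.

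Closeness to the palindrome did not follow peak strength gene by gene. Over all targets the median −log10 p was 185 in those with no mismatch, 162 with 1, 125 with 2 and 106 with 3. Within the module, Tmem237 had the closest site but a −log10 p of 97.8, while B9d1, with 3 mismatches, had the highest value (286.6). Spearman's rho between mismatches and −log10 p was −0.439 over the 10 genes, which share 1 list.

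Tctn3 and Tmem67 were the genes without an X-box as defined here, a close match to 1 exact palindrome with fixed spacing. Neither gained one within 100 bp of the summit with 4 mismatches allowed. Every variant base counted as a mismatch, so a site of a looser form is not excluded in either gene. In Tctn3 the half-sites stood 1 base apart with 1 mismatch of 12 bases, and the centre of this site lay 20 bp downstream of the summit. Such a site was found in 3.30% of targets, in 0.288% of windows at all protein-coding TSSs and in no moved window. Among the 481 targets without an X-box it was found in 36 (7.48%). In Tmem67 the best site of this spacing had 3 mismatches of 12 to the exact half-sites GTTGCC and GGCAAC. At most 3 were also reached by 31.0% of targets and 4.68% of moved windows. This search was added after the sequences had been seen.

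**Figure D5:**
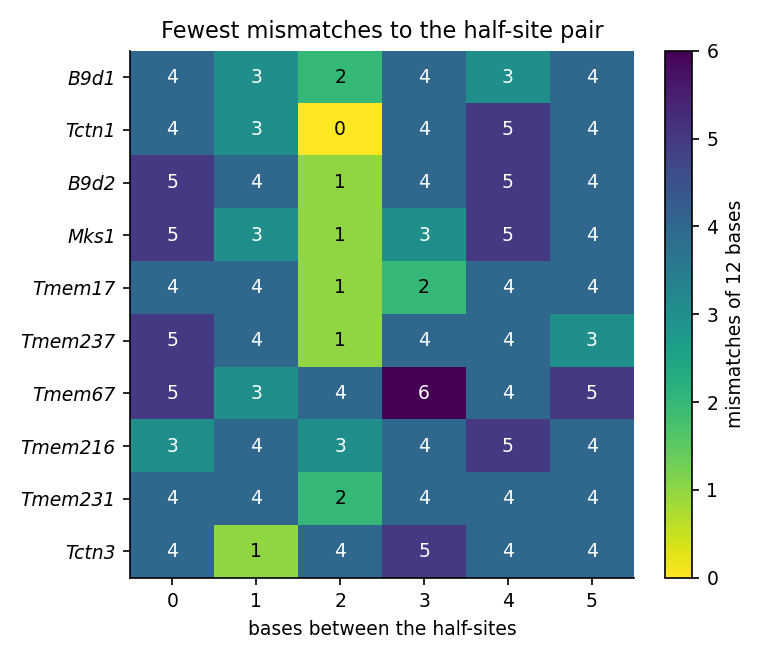
For each of the 10 genes (rows, in the order of combined −log10 p) and each number of bases between the outer half-sites (columns), the cell gives the fewest mismatches of 12 bases found within 100 bp of the summit. The lowest value of a row is at 2 bases in 8 of the genes (jointly with 0 bases in Tmem216), while Tctn3 and Tmem67 have theirs at 1 base, with 1 and 3 mismatches.

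Other short motifs were counted on both strands in the same windows. The half-site GTTGCC alone was present in 8 of 10 genes, 56.3% of targets and 8.50% of windows at all TSSs. It is part of the perfect X-box by construction. The X-box of B9d1 did not hold it, though the window did, and Tctn3 had it without an X-box as defined here. It was absent in Tmem67 and Tmem216. The cAMP response element TGACGTCA, a site of CREM and related factors, was found in 0 of 10 genes and 4.16% of targets. The letters CCAAT were found in 4 genes (B9d2, Tctn3, Tmem67 and Tmem231) and 32.7% of targets, and the GC-box GGGCGG in 4 genes (B9d2, Tmem67, Tmem216 and Tmem237) and 40.1% of targets. The median G+C content of the windows was 65.7% in the module and 59.2% over all targets. Tmem67 was the exception at 43.3%.

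Peaks other than the promoter peaks described were counted in the gene bodies and within 50000 bp of a TSS. Such peaks were not counted around other genes, so whether these numbers are low or high cannot be told. The combined list held 1, near Tmem216. It lay 20161 bp away at the promoter of Tmem138, which encodes another transition zone membrane protein, with a −log10 p of 280.5 (rank 66) against 52.9 for the Tmem216 peak. Replicate 1 held 19 such peaks around 7 genes, and replicate 2 held 10 around 7 genes. Peaks at about the same place in both replicates were found near B9d1 (scores of 24.8 and 6.46 some 10374 bp from a TSS, and 16.1 and 5.06 at 2920 bp), near Tmem231 (14.2 and 13.0 at 6542 bp) and near Tmem17 (4.47 and 4.14 at 30219 bp). Second promoter peaks appeared in replicate 1 alone at B9d1 (3.31), Tmem216 (5.99) and Tmem237 (5.58). The Tmem138 peak near Tmem216 was also in both replicates, with scores of 243.3 (rank 55) and 76.3 (rank 233). Besides the second promoter peaks named above, the nearest other peak was in 1 replicate only in Tmem231, Tctn1, B9d2, Tmem67 and Tctn3. In replicate 1 it was 3542 bp from a Tmem231 TSS (3.24), 22305 bp from one of Tmem67 (8.28) and 27347 bp from one of Tctn3 (22.5). In replicate 2 it was 2879 bp from a Tctn1 TSS (3.50) and 18368 bp from one of B9d2 (3.85). Mks1 had no other peak in any list.

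A list of 16 other genes of the transition zone was set beside the module. Of these, 10 had a promoter peak in replicate 1, 9 in replicate 2 and 8 in the combined list. Over all protein-coding genes the shares were 14%, 11.3% and 5.25% in the same order. The strongest was Tctn2, the other tectonic gene, which this annotation lists without a protein-coding transcript, with a combined −log10 p of 342.8 (rank 20), above every member. Tmem138 (280.5), Sdccag8 (133.4), Tmem107 (94.9), Rpgrip1l (93.8), Tmem218 (61.8), Ahi1 (55.9) and Cep290 (50.6) followed. Shared promoters were not described for these genes. Tmem138, Sdccag8, Rpgrip1l and Cep290 had the same −log10 p and fold enrichment as Cyb561a3, Cep170, Fto and Tmtc3, in that order. Their peaks may therefore not belong to the named gene alone. The Ahi1 summit lay in an intron, at −687 bp from the start of a processed transcript. That start is 47990 bp from the 5′-most Ahi1 TSS. In replicate 2 the strongest Ahi1 promoter peak (31.2) was centred 13 bp from the 5′-most TSS. Nphp4 (3.92, replicate 1), Cplane1 (6.52, replicate 1) and Cc2d2a (5.06, replicate 2) had a peak in 1 replicate only. Tmem80, Iqcb1, Invs, Nek8 and Anks6 had none in any list. An absent peak means only that none passed the threshold of the list.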

How the data were processed

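Groups and replicate numbers were taken from sample titles. The authors mapped reads to GRCm38 with Bowtie 0.12.7, dropped reads with several locations, and called peaks against input with MACS2 2.0.10.20130520, which the submitters' processing notes list with CASAVA 1.8.2. In the deposited replicate lists each peak carries 1 −log10 value. The deposited combined list gives a score (10 times −log10 p), fold enrichment as a ratio, −log10 p, −log10 q and a summit. It is attached to replicate 2, but its peak names begin with "all", and it was taken to come from pooled reads, which makes it dependent on the replicates. The sources used here do not say which MACS2 call each list holds. No list was used for the inputs. The lists name Ensembl release 70, and TSSs came from GENCODE release 21 (Ensembl release 96). Sequence came from the RefSeq FASTA of GRCm38 patch 6.

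The strongest promoter peak of each gene was taken per list, with overlaps of at least 1 bp (Python 3.11.15, pandas 2.3.3, counts checked with bedtools 2.31.1). X-boxes were searched on both strands in 201 bp around the summit. Searches were tested on simulated data. All 10 members, the genes that share their peaks and a list of 16 other transition zone genes were named, and some genes of that list as first drawn up are not reported here. Members and lists were chosen with earlier results of these data known, so no test was made. The closing section gives the alternatives tried.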

Additional observations from a re-analysis of the deposited data

How the results depend on the processing

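Over 8 results, 30 alternatives that keep both replicates were computed. Of these, 25 stayed within 1.5 times the main count or within 1 SD over the members, and 5 did not. These limits are wide. The SD was 123.1 bp for the summit distance, so that even a change of sign of its median counted as staying. For the rank percentile the SD was 37.75. The count of genes with an X-box near the summit was 8, and it became 4 with at most 2 mismatches and 4 when the window was placed around the peak centre. It stayed at 8 with at most 4 mismatches or in the whole peak, and was 10 for half-sites 1 or 2 bases apart with at most 3 mismatches of 12, which 86.6% of targets also had, an alternative chosen after seeing the data. The count of genes sharing their peak, 4, became 1 when only the 5′-most TSS of protein-coding transcripts was used and 2 with other protein-coding genes only. The median rank percentile, 66.2, became 26.1 when the combined list was ranked by fold enrichment, which moved it to the weaker side of the list. The count of members with a promoter peak was 9 in every list from the 5′-most TSS, which loses Tmem67, and 7 in the top 50% of the combined list, which loses Tctn3, Tmem216 and Tmem231. When overlap of the replicates had to cover 50% of each peak the count was 9, without Tmem231. Without replicate 1 or without replicate 2 no overlap can be formed, and the values of 10 and 10 are the counts of the remaining list. The median summit distance, 5.5 bp, was 74.5 bp from the 5′-most TSS, −29.5 bp for the peak centre, which is upstream, and 27.0 bp from RefSeq starts, the last chosen after seeing the data and available for 9 genes. No paired analysis was possible because no result comes from a test. Depth is unknown, so an absent peak cannot be told from one below the threshold, and with 2 replicates no error could be given for a score.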
